A study of Mus musculus with 6 samples.

Results

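The genes described here are 39 genes of the cell division cycle (cyclins, cyclin-dependent kinases, their inhibitors, and genes of DNA replication and mitosis), chosen by name from the 49212 genes counted in mouse liver. Liver RNA came from C57BL/6J mice aged 15 weeks, 3 given placebo and 3 carrying a pellet of dihydrotestosterone (DHT), an androgen used to model polycystic ovary syndrome (PCOS), the name the labels give these mice. The strain, the tissue and the age were shared by both groups. The labels give no sex, pellet dose, duration or time of day, and whole liver mixes hepatocytes with other cells, so a difference in cell numbers and one in RNA per cell cannot be told apart. They do not name separate animals, so p-values measure the spread between these 6 samples, which may be technical.

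Total counts per library lay between 41336844 and 60209462. Hepatocyte markers were present in every library, as the 6 markers summed to between 70300 and 130000 CPM (counts scaled to each library's total with TMM factors). The 4 Y-linked transcripts checked summed to 137 to 153 CPM in the libraries labelled DHT and to 0.123 to 0.197 CPM in placebo. Every comparison given below is therefore also one of libraries with Y-linked RNA against libraries nearly without it. A difference of sex and one of treatment cannot be told apart in any of them. By edgeR's quasi-likelihood test, 250 of 15126 genes (1.65%) were called at an adjusted p under 0.05. Deviations from the group means were positively correlated between libraries of the same number (0.246, 0.145 and 0.602 for numbers 1, 2 and 3). For placebo 1 and 2 another number correlated more (0.287 with DHT 2 and 0.445 with DHT 1). Values from a fit with the library number as a block are given where they change a call. That block was taken from these same data and not from the design, so its p-values may be too small. Placebo 3 was the lowest placebo library in 24 of the 39 genes, where 41.9% of all tested genes had their lowest placebo value there.

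Cells leave rest through D-type cyclins with CDK4 and CDK6, which inactivate the retinoblastoma protein and release E2F factors. E2F factors switch on cyclin E and the genes that load the MCM helicase and make DNA precursors, and cyclins A and B with CDK1 then drive the cell into mitosis. Hepatocytes of an adult liver are mostly at rest and often polyploid, and the p21 protein encoded by Cdkn1a and the kinase WEE1 restrain division when liver does regenerate.

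The promoters of genes with different roles held different sequence motifs. RefSeq promoter windows, each from 250 bases before to 50 bases after a transcription start on GRCm38.p6, were matched by symbol for 32 of the 39 genes (not for Ccnd1, Ccnd2, Ccne2, Wee1, Ccna2, Mcm4 and Aurkb) and were searched on both strands for the CCAAT box, for the CHR element (TTTGAA), and for 3 E2F-type elements (TTTCGCGC, TTTGGCGC and TTTCCCGC, which can overlap one another). TTTGAA was found in 8 of 11 genes of G2/M, mitosis and proliferation marking, against 1 of 11 replication genes and 20.2% of 27025 genes with a window. An E2F-type element was found in 6 of 11 replication genes, against 1 of 11 mitotic genes and 2.12% of all genes. CCAAT was common everywhere, in 10 of 11 mitotic genes, 8 of 11 replication genes and 41.1% of all genes. Among further mitotic genes from a list of related genes, 20 of 29 held TTTGAA and 1 of 29 an E2F-type element. Among further replication genes, 5 of 26 held TTTGAA and 7 of 26 an E2F-type element. None of these motifs was found in either window of Cdkn1a, which says only that the letters are not there. A match is one of letters and not a measured binding site.

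**Figure D1:**
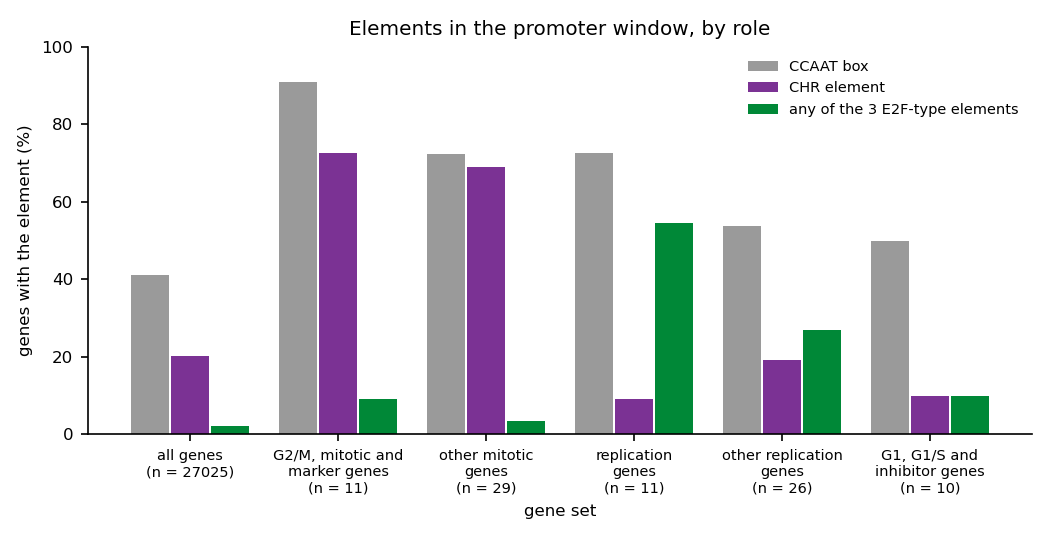
Share of genes (%, vertical axis) whose promoter window holds a CCAAT box, the CHR element or any of 3 E2F-type elements, by gene set (horizontal axis, with the number of genes that have a window). The CHR element stands highest in both mitotic sets, at 72.7% and 69.0%, and the E2F-type elements in the replication genes, at 54.5%.

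The stretches below show both arrangements, taken upstream of the counted gene and printed 5′ to 3′ on the strand of the gene. The mitotic pattern, CCAAT boxes and TTTGAA in the same promoter, is shown by Ccnb2 (cyclin B2, chr9:70421559-70421733, minus strand), Cdc20 (activator of the anaphase-promoting complex, chr4:118437353-118437408, minus strand) and Mki67 (the proliferation antigen Ki-67, chr7:135716460-135716579, minus strand). Capitals mark CCAAT, its reverse complement ATTGG, and TTTGAA. The TTTGAA printed for Ccnb2 lies 167 bases before the RefSeq start, and another, 5 bases after that start, is outside the stretch.
Ccnb2: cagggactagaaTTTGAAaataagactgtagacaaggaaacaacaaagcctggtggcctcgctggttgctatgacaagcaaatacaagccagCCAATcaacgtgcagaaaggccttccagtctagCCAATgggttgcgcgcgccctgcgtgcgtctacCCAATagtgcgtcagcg
Cdc20: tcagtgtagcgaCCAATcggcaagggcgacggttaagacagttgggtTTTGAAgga
Mki67: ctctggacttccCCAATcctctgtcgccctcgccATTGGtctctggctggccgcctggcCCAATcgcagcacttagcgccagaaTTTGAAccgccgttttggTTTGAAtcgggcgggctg
The replication pattern is shown by Mcm5 (chr8:75109344-75109379, plus strand) and Mcm6 (chr1:128359733-128359827, minus strand), subunits of the helicase that unwinds DNA. Capitals mark E2F-type elements alone, and in both genes a pair of them on opposite strands overlap.
Mcm5: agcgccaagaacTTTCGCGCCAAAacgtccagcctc
Mcm6: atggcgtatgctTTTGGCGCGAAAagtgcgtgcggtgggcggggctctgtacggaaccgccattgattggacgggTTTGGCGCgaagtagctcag
Cdk1, the mitotic kinase (chr10:69352944-69353132, minus strand), held both kinds, and capitals mark those inside the stretch. Another TTTGAA, 15 bases before the RefSeq start, is outside the stretch.
Cdk1: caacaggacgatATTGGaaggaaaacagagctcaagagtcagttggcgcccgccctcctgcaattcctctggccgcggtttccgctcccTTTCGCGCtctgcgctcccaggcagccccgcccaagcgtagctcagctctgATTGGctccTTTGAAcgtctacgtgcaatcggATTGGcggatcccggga

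Levels were spread by role. Counted per kilobase of exon, the 39 genes had a median of 0.886 CPM per kb over the 6 libraries, where the 15126 tested genes had 2.07. Highest were Cdk4 (12.6 CPM per kb), Pcna, the sliding clamp of DNA polymerase (12.5), Ccnd1, which encodes cyclin D1 (9.86), Cdkn1b, which encodes the inhibitor p27 (6.07), and Wee1 (4.12). Neither Cdk4 nor Pcna was called in edgeR (adjusted p = 0.448 and 0.495). Cdk4 overlapped between groups, while Pcna was lower in the libraries labelled DHT without overlap. The lowest were Bub1, a kinetochore kinase (0.0442), Cdc6, which helps load the MCM helicase (0.0759), and Ccnb1, which encodes cyclin B1 (0.138). The CDK inhibitors with Wee1 had a median of 3.6 CPM per kb, the licensing genes 0.924, the G2/M cyclins with Cdk1 0.419 and the mitotic kinases and checkpoint genes 0.243. Ki-67 RNA, at 0.304 CPM per kb, lay above only 17.8% of the tested genes.

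**Figure D2:**
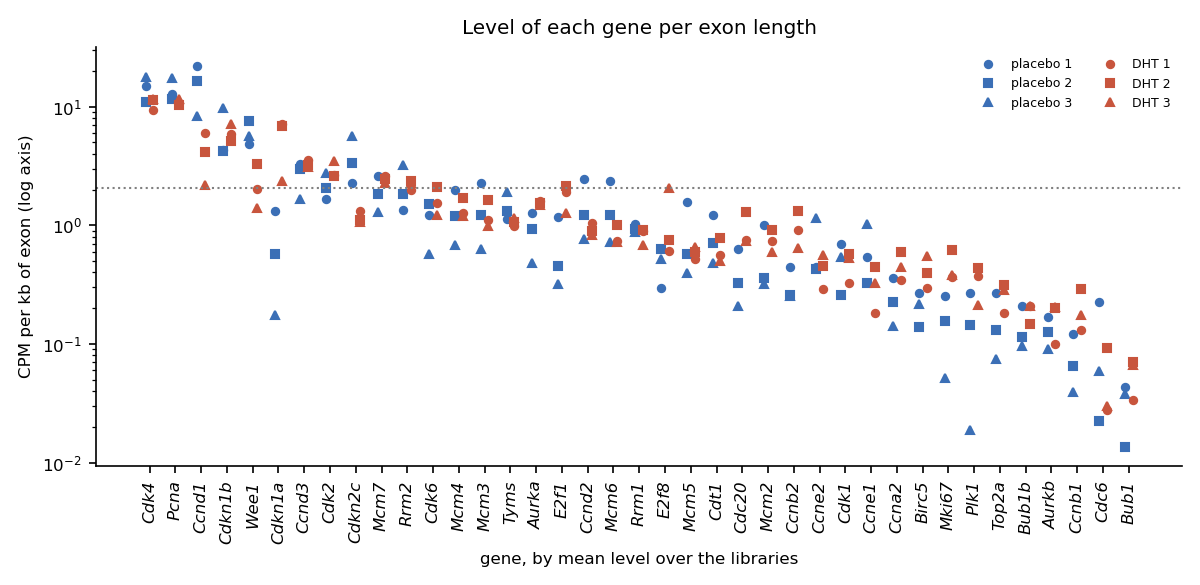
Level of each of the 39 genes per kilobase of exon (CPM per kb, log axis), with genes ordered by their mean over the 6 libraries. Each point is 1 library (blue placebo, red DHT, with the symbol giving the library number), and the dotted line is the median of the tested genes, 2.07. Most replication and mitotic genes lie below that line in every library.

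None of the 38 tested genes of the set was called in either direction (all genes: 0.952% higher and 0.701% lower) in the comparison of the libraries labelled DHT with placebo, by edgeR's test adjusted over all 15126 genes. Bub1 was too low to test, with 3 to 17 counts a library. At an unadjusted p under 0.05 there were 11 of the 38 genes, 8 higher and 3 lower, where all genes gave 15.9% (7.40% higher and 8.52% lower). The CPM of the 3 libraries labelled DHT did not overlap those of placebo in 12 genes, 8 higher and 4 lower, against 23.6% of all genes (12.7% and 10.9%). With the replicate block, 9 of the 38 genes were called, 6 higher and 3 lower, against 10.7% of all genes (5.44% and 5.28%). The 6 called higher in that fit were Cdkn1a, E2f1, E2f8, Ccnb2, Cdc20 and Mki67, and the 3 called lower were Ccnd1, Cdkn2c and Wee1. DESeq2 called 5 of the 38 (7.02% of all genes) and limma voom 3 (4.92%). Other settings of edgeR gave 3 calls with no low-count filter (1.97% of all genes), 3 without placebo 3 (5.54%), 2 with length and GC trends removed (3.38%), 8 with those trends removed and the block (10.3%) and 2 without both libraries numbered 3 (2.95%).

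**Figure D3:**
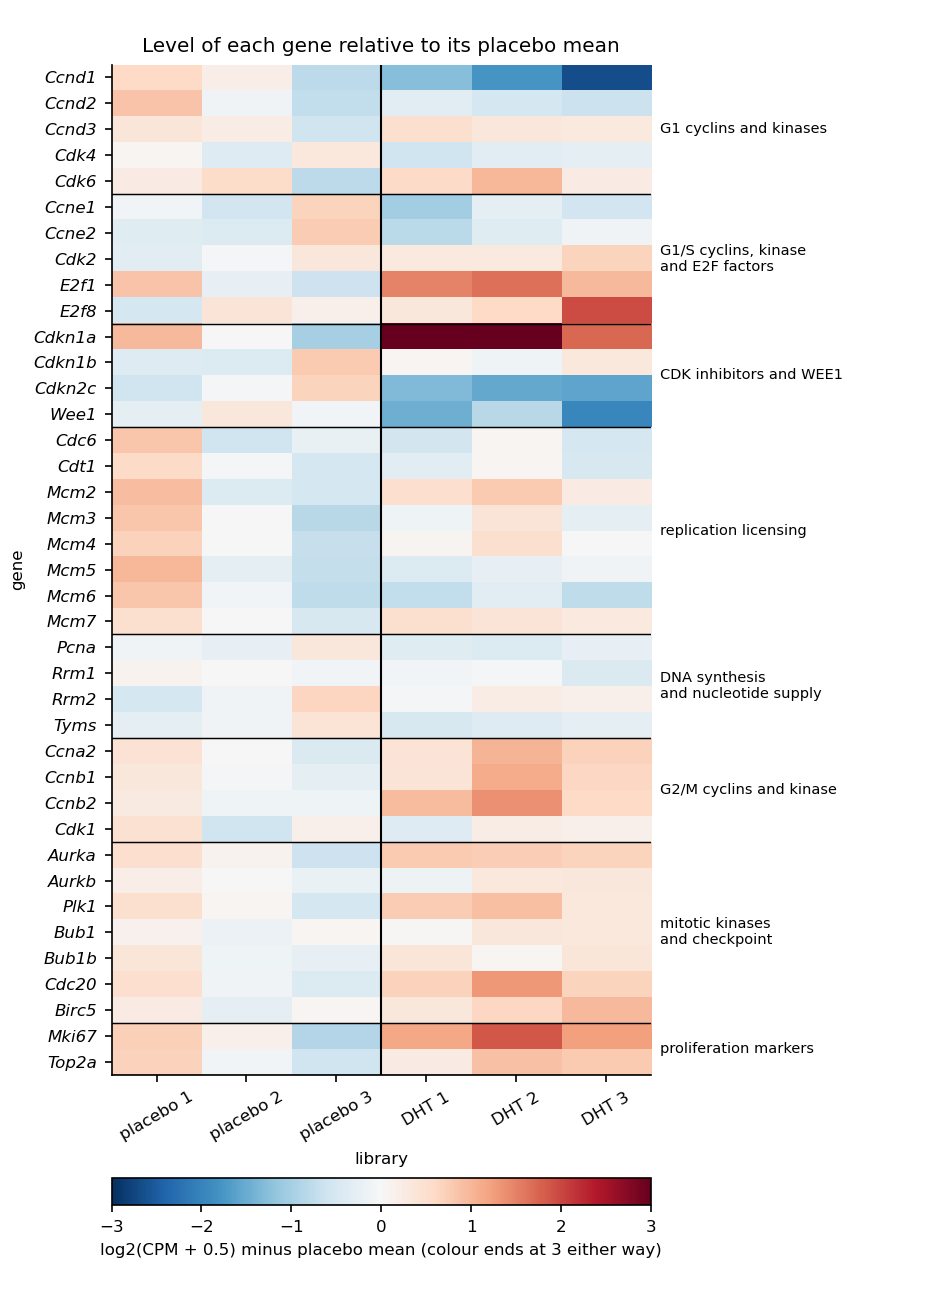
Level of each gene in each library relative to its mean in placebo, as log2(CPM + 0.5) minus the placebo mean (colour, ending at 3 in either direction), with genes in rows by role and libraries in columns. Cdkn1a in DHT 1 and 2 passes the end of the colour scale. The rows of Ccnd1, Cdkn2c and Wee1 are blue, and most mitotic rows red, in the 3 DHT columns.

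Among the genes that open the cycle, cyclin D1 had the lower level in the libraries labelled DHT. Ccnd1 (GRCm38 chromosome 7, 144929931 to 144939925) had 103, 78.1 and 39.2 CPM in placebo 1, 2 and 3 and 28.0, 19.6 and 10.3 CPM in DHT 1, 2 and 3. Each DHT library lay below each placebo library, and library 3 was the lowest of both groups. Its log2 fold change, as DHT minus placebo with the SE, was −1.93 ± 0.47, a 3.81-fold lower mean, with an adjusted p of 0.0976 in edgeR and of 2.63e-07 with the replicate block. Exons of Ccnd1 overlap those of Oraov1 on the opposite strand over 23.4% of their length, and the strand setting of the counting is not given in the sources used here.

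The kinase partner of cyclin D1 stood closer between groups. Cdk4 (chromosome 10, 127063534 to 127067920) stood at 48.2, 35.4 and 58.0 CPM in placebo against 30.4, 36.9 and 37.7 in the DHT-labelled libraries, and the groups overlapped (−0.43 ± 0.26, adjusted p = 0.448). Its exons overlap those of Tspan31 over 18.6% of their length. The other members of this step also overlapped between groups. Ccnd2 had −0.68 ± 0.41 as its log2 fold change, Ccnd3 had 0.32 ± 0.29 and Cdk6 had 0.55 ± 0.39, with adjusted p-values from 0.452 to 0.622.

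E2f1, the E2F factor that activates S-phase genes (chromosome 2, 154559407 to 154569892), measured 3.68, 1.44 and 1.01 CPM in the placebo libraries and 6.01, 6.76 and 4.03 in those labelled DHT. The groups did not overlap, with placebo 1 closest to the DHT libraries. The log2 fold change was 1.45 ± 0.50 (adjusted p = 0.221), and 1.63 ± 0.36 with the replicate block (adjusted p = 0.000889). Without placebo 1 it was 2.17. E2f8, an E2F factor that represses these genes and promotes polyploidy of hepatocytes, gave 1.6, 3.45 and 2.84 CPM with placebo and, under the DHT label, 3.33, 4.08 and 11.3. DHT 3 stood apart from the other libraries and DHT 1 lay within the placebo range, with 1.25 ± 0.52 as the log2 fold change (adjusted p = 0.30, and 0.0283 with the replicate block). Without DHT 3 the value for E2f8 was 0.50. Exons of E2f8 overlap those of Gm2788 over 11.2% of their length.

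Cdk2, the kinase of cyclins E and A (chromosome 10, 128697939 to 128705051), stood at 4.04, 5.02 and 6.70 CPM in placebo against 6.44, 6.38 and 8.55 in the DHT-labelled libraries (0.44 ± 0.29, adjusted p = 0.492). The E cyclins had the lower mean in the libraries labelled DHT. Ccne1 measured 1.68 ± 0.970 CPM in the placebo libraries and 0.846 ± 0.347 in those labelled DHT (SD, n = 3 each), and Ccne2 had 2.36 ± 1.44 and 1.51 ± 0.473 CPM. Neither passed, and for both genes placebo 3 was the highest of the 6 libraries. The log2 fold change of Ccne2 was −0.65 ± 0.48, and −0.03 without placebo 3.

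The inhibitors of the cycle pointed in different directions. Cdkn1a, which encodes p21, a general CDK inhibitor and target of p53 (chromosome 17, 29090979 to 29100722), gave 2.96, 1.28 and 0.391 CPM with placebo and, under the DHT label, 15.9, 15.3 and 5.28. No placebo library reached the lowest DHT library, and library 3 was the lowest of both groups, as for Ccnd1. The log2 fold change was 2.97 ± 0.72, a 7.84-fold higher mean (adjusted p = 0.0991, and 1.08e-10 with the replicate block). Its fold change was the highest of the 38 genes, and without placebo 1 it was 3.84 on the log2 scale.

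Cdkn2c, which encodes p18, an inhibitor of CDK4 and CDK6 (chromosome 4, 109660876 to 109667189), stood at 6.11, 9.04 and 15.3 CPM in placebo against 3.52, 2.97 and 2.86 in the DHT-labelled libraries. The DHT libraries lay close together below all placebo libraries, whose highest was placebo 3. The log2 fold change was −1.70 ± 0.37, a 3.25-fold lower mean (adjusted p = 0.0733, the lowest of the 38 genes, and 0.000284 with the replicate block).

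Wee1, which encodes the kinase that holds CDK1 inactive and is a known target of the circadian clock in liver (chromosome 7, 110122046 to 110143286), measured 16.6, 25.8 and 19.2 CPM in the placebo libraries and 6.96, 11.2 and 4.79 in those labelled DHT. The groups did not overlap, with −1.43 ± 0.36 as the log2 fold change, a 2.69-fold lower mean (adjusted p = 0.109, and 0.000117 with the replicate block). Cdkn1b, in contrast, gave 19.6, 19.3 and 44.4 CPM with placebo and, under the DHT label, 26.9, 23.5 and 32.2. Its means were 27.8 ± 14.4 and 27.6 ± 4.41 CPM (SD, n = 3 each), with placebo 3 above and placebo 1 and 2 below all DHT libraries.

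**Figure D4:**
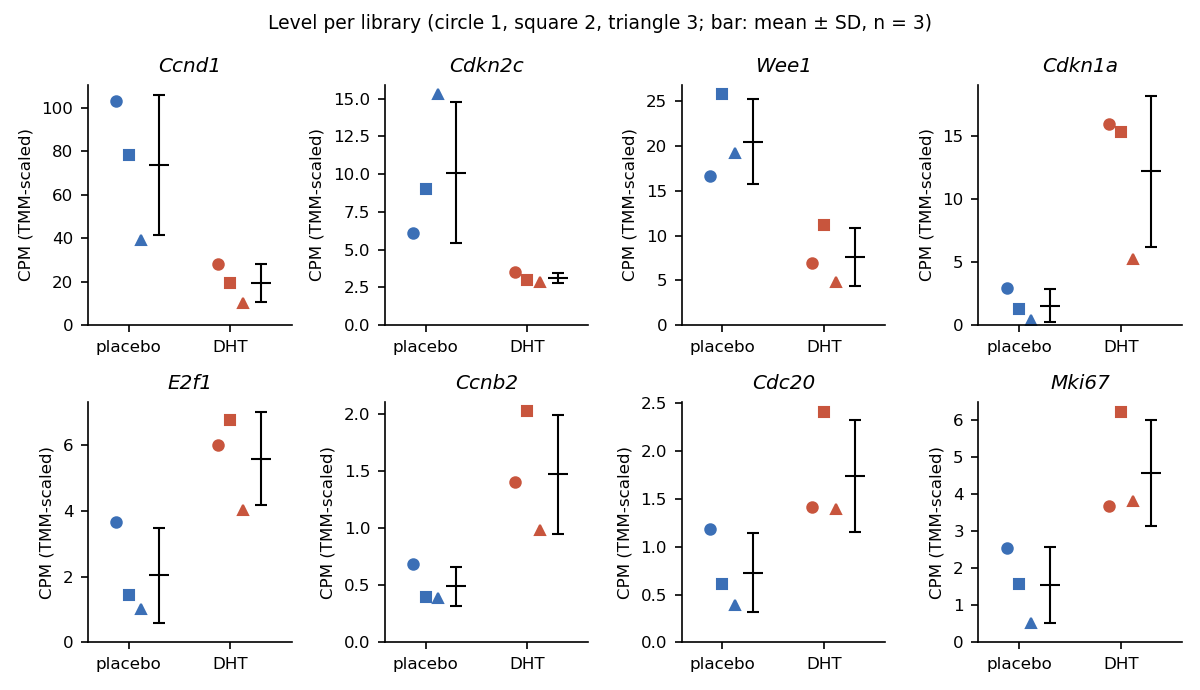
Level of 8 genes in each library (CPM, TMM-scaled, linear axes from 0), in placebo (blue) and the libraries labelled DHT (red), with the library number as the symbol and the mean ± SD of 3 libraries beside it. Ccnd1, Cdkn2c and Wee1 lie lower, and Cdkn1a, E2f1, Ccnb2, Cdc20 and Mki67 higher, in all 3 DHT libraries than in all 3 placebo libraries.

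The genes that license and carry out replication showed no common direction. Of 12 such genes, 4 had the higher mean in the libraries labelled DHT and 8 the lower. In edgeR 0 were called (1.65% of all genes), with 0 at an unadjusted p under 0.05 (15.9%) and 0 with the replicate block (10.7%). With only 12 genes and these shares, the absence of calls is not read as a trait of replication genes. Mcm6 (chromosome 1, 128331590 to 128359664) stood at 11.1, 5.71 and 3.35 CPM in placebo against 3.42, 4.72 and 3.36 in the DHT-labelled libraries, so that placebo 1 and 2 stood above all DHT libraries while placebo 3 was level with DHT 3 (−0.81 ± 0.44, adjusted p = 0.398). Mcm7, whose exons overlap those of Ap4m1 over 7.25% of their length (chromosome 5, 138164583 to 138172422), measured 11.5, 8.14 and 5.69 CPM in the placebo libraries and 11.5, 10.8 and 10 in those labelled DHT (0.35 ± 0.30, adjusted p = 0.593).

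The 8 licensing genes spread more among the placebo libraries than between the groups. Their summed level was 56.6, 29.9 and 19.4 CPM in placebo 1, 2 and 3 and 32.7, 39.5 and 29.9 CPM in DHT 1, 2 and 3, so the DHT libraries lay inside the placebo range. Placebo 3 was the lowest placebo library in 7 of the 8 genes. Mcm5 had −0.53 ± 0.51 as its log2 fold change and Cdt1, a loader of the MCM helicase, had −0.38 ± 0.41, and without placebo 1 these became 0.26 and 0.02. Mcm2 had 0.40 ± 0.47 as its log2 fold change, and 1.11 without placebo 1. Mcm3 and Mcm4 had group means within 0.5 CPM of each other, at 5.16 and 4.67 CPM for Mcm3 and 4.62 and 5.0 CPM for Mcm4 in placebo and DHT. Cdc6 gave 0.118 to 1.17 CPM with placebo and, under the DHT label, 0.146 to 0.483.

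None of the 4 genes of DNA synthesis and nucleotide supply passed. Pcna (chromosome 2, 132249162 to 132253314) stood at 31.0, 28.0 and 42.0 CPM in placebo against 25.6, 24.8 and 28.0 in the DHT-labelled libraries, so that the groups met at 28.0 without crossing (−0.37 ± 0.24, adjusted p = 0.495). Tyms, the thymidylate synthase gene (chromosome 5, 30058202 to 30073617), measured 6.93, 8.02 and 11.6 CPM in the placebo libraries and 6.04, 6.52 and 7.0 in those labelled DHT (−0.44 ± 0.28, adjusted p = 0.468). Rrm1 and Rrm2, the subunits of ribonucleotide reductase, gave 10.4 ± 0.800 and 5.91 ± 2.70 CPM with placebo and, under the DHT label, 9.13 ± 1.39 and 6.10 ± 0.588 (SD, n = 3 each).

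Most genes of the mitotic side had the higher mean in the libraries labelled DHT. Of 13 genes of G2/M, mitosis and proliferation marking, 12 did, Cdk1 being the exception, and 6 did not overlap between groups, all higher (12.7% of all genes did so). Their summed level was 17.5, 9.93 and 7.4 CPM in placebo 1, 2 and 3 and 18.4, 26.8 and 21.0 CPM in DHT 1, 2 and 3. Each DHT library was above each placebo library, but placebo 1 came within 1 CPM of DHT 1. The share of counts from mitochondrial genes was 6.83, 4.83 and 3.23% in placebo 1, 2 and 3 and 6.44, 8.48 and 8.0% in DHT 1, 2 and 3. It was lowest in placebo 3 and highest in DHT 2, as the mitotic sum was, and its part in the mitotic levels was not tested. Of the 12 tested, 0 were called in edgeR, 5 were higher at an unadjusted p under 0.05 (7.40% of all genes), and 3 were called higher with the replicate block (5.44%). With no filter on low counts the median log2 fold change was 0.94 for these genes and −0.26 for the replication genes, where all genes had −0.004. Ccnb1 and Plk1 had 2 placebo and 3 DHT libraries over the cutoff of the low-count filter. Over the genes that passed that filter the medians were 0.95 and −0.27. Without placebo 1 these became 1.31 and 0.14, and without placebo 3 they became 0.74 and −0.22.

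Ccnb2 (chromosome 9, 70407692 to 70421547) stood at 0.688, 0.394 and 0.391 CPM in placebo against 1.40, 2.02 and 0.984 in the DHT-labelled libraries. These are 19 to 40 counts a library in placebo and 44 to 113 in the libraries labelled DHT, and the groups did not overlap. The log2 fold change was 1.57 ± 0.44, a 2.97-fold higher mean (adjusted p = 0.141, and 0.0157 with the replicate block). Ccnb1, at 8 to 30 counts in placebo and 33 to 69 in the libraries labelled DHT, had 1.38 ± 0.54 as its log2 fold change, and did not pass with the block (adjusted p = 0.0675). Ccna2 (0.93 ± 0.43), which encodes cyclin A2 and overlaps Exosc9 over 12.5% of its exon length, had 1.41 CPM in DHT 1, below the 1.46 CPM of placebo 1. Cdk1 measured 2.39, 0.887 and 1.85 CPM in the placebo libraries and 1.12, 1.97 and 1.83 in those labelled DHT, at nearly equal means of 1.71 ± 0.762 and 1.64 ± 0.455 CPM.

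Cdc20 (chromosome 4, 118432901 to 118437352) gave 1.19, 0.611 and 0.391 CPM with placebo and, under the DHT label, 1.41, 2.41 and 1.39. The groups did not overlap, and DHT 2 was the highest library, with 1.24 ± 0.49 as the log2 fold change (adjusted p = 0.270, and 0.0405 with the replicate block). Aurka, a kinase of spindle poles (chromosome 2, 172356190 to 172370535), stood at 3.25, 2.36 and 1.21 CPM in placebo against 4.03, 3.93 and 3.71 in the DHT-labelled libraries. The DHT libraries lay close together above all placebo libraries (0.77 ± 0.38, adjusted p = 0.363). Birc5, which encodes survivin, did not overlap between groups either (0.98 ± 0.41, adjusted p = 0.30). Plk1 (1.25 ± 0.73), Aurkb (0.37 ± 0.46) and Bub1b (0.42 ± 0.43) overlapped, and Plk1 had 2 counts in placebo 3. The value for Plk1 was 2.05 without placebo 1. Untested Bub1 measured 0.0591 to 0.189 CPM in the placebo libraries and 0.146 to 0.304 in those labelled DHT.

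Mki67 (chromosome 7, 135689784 to 135716361) gave 2.55, 1.58 and 0.514 CPM with placebo and, under the DHT label, 3.68, 6.22 and 3.83. All DHT libraries were higher, and the 3 placebo libraries spread more widely among themselves in relative terms. The log2 fold change was 1.56 ± 0.54, a 2.95-fold higher mean (adjusted p = 0.225, and 0.00162 with the replicate block). Top2a, the topoisomerase that untangles chromosomes in mitosis, overlapped between groups, with 1.42 ± 0.890 CPM in placebo and 2.34 ± 0.617 in those labelled DHT (0.71 ± 0.49, adjusted p = 0.507). Without placebo 1 the value for Top2a was 1.31.

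**Figure D5:**
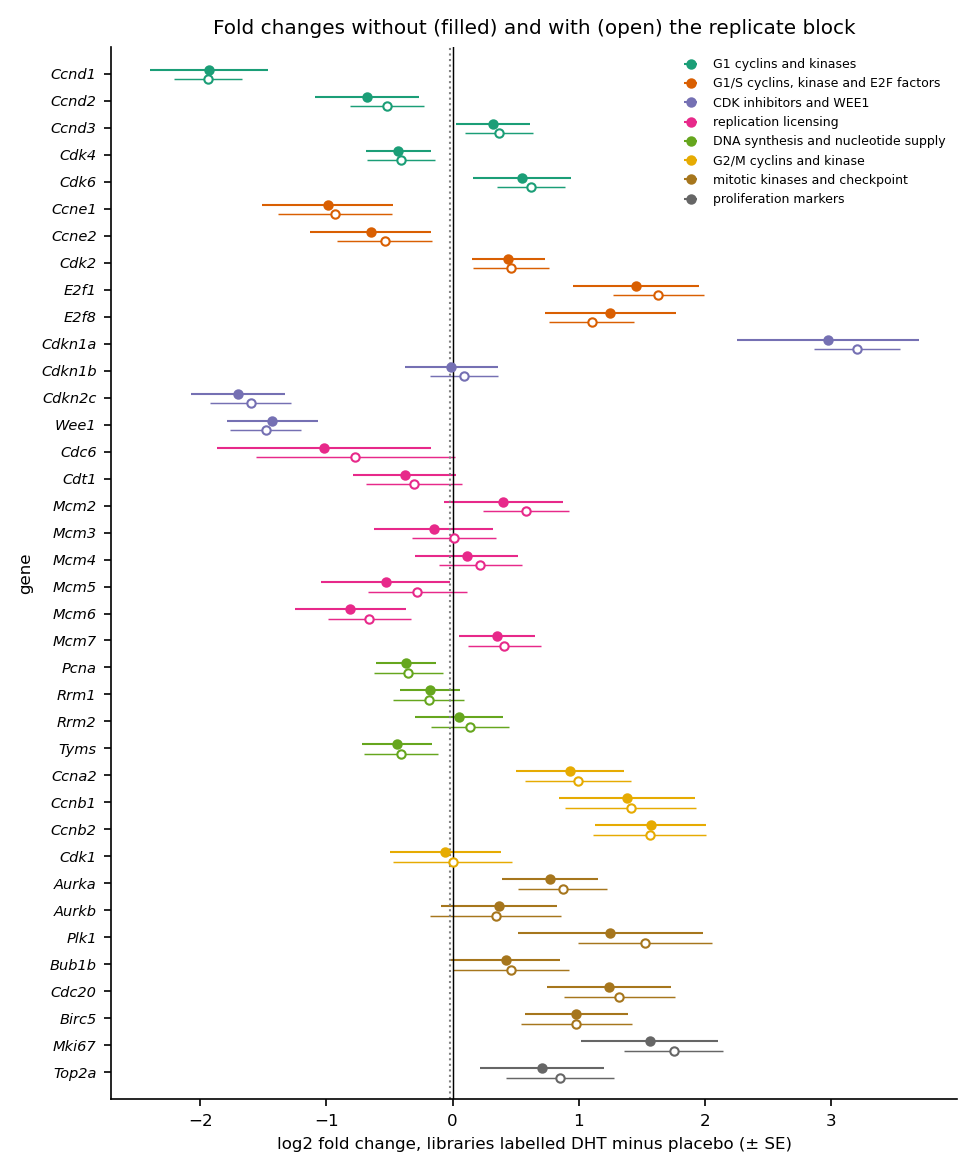
Log2 fold change of each tested gene (libraries labelled DHT minus placebo, horizontal axis, ± SE) without the replicate block (filled points) and with it (open points), coloured by role, with a dotted line at the median of all tested genes, −0.024. Mitotic genes other than Cdk1 lie right of 0, replication genes lie on both sides, and Cdkn1a (2.97) and Ccnd1 (−1.93) are at the ends.

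Related genes outside the 39 were read from 5 lists. Of 34 further mitotic genes, 30 had the higher mean in the libraries labelled DHT. The groups did not overlap in 12, all higher (12.7% of all tested genes). These 12 include Cdc25c and Mybl2, which were too low to test. Cdc25c had 1 count in each placebo library and 5 to 11 in those labelled DHT. Mybl2 had 2 to 6 and 8 to 18 counts. Of the 32 tested, Espl1 passed the low-count filter with no placebo library over its cutoff. Ttk, Ndc80 and Kif2c had 1 placebo library over it, and Cenpe, Cenpf, Nuf2, Kif20a, Tpx2, Prc1 and Foxm1 had 2. All these genes had 3 DHT libraries over it, so placebo alone would not have passed them. With no filter the median log2 fold change of the list was 0.92. In edgeR 1 of the 32 was called higher (0.952% of all genes), and 7 were with the replicate block (5.44%). The called gene was Ccnf, which encodes cyclin F, a subunit of a ubiquitin ligase (chromosome 17, 24223232 to 24251409). It stood at 3.77, 4.91 and 4.89 CPM in placebo against 14.9, 11.4 and 10.8 in the DHT-labelled libraries, well apart (1.45 ± 0.26, adjusted p = 0.0383). The call of Ccnf was lost without any one library except placebo 3, at adjusted p-values up to 0.205.

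Of 35 further replication genes, 14 had the higher mean in the libraries labelled DHT, and 0 were called in edgeR, with 5 of 33 tested at an unadjusted p under 0.05 and 3 called with the replicate block, which is near the shares of all genes (15.9% and 10.7%). The 2 with the smallest p differed in the sign of their fold change. Tk1, the thymidine kinase of S phase (chromosome 11, 117815526 to 117826092), measured 28.1, 32.1 and 62.2 CPM in the placebo libraries and 7.29, 5.6 and 15.5 in those labelled DHT (−2.11 ± 0.47, adjusted p = 0.0818, and 3.80e-08 with the replicate block). Dbf4, the activator of the kinase that fires origins (chromosome 5, 8396973 to 8422716), gave 1.75, 1.18 and 1.71 CPM with placebo and, under the DHT label, 3.73, 2.90 and 3.36 (1.10 ± 0.31, adjusted p = 0.142, and 0.0340 with the replicate block).

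Of 24 further inhibitors and genes of the RB and E2F families, 0 were called in edgeR, with 4 of 23 tested at an unadjusted p under 0.05 and 2 called with the block, near the shares of all genes (15.9% and 10.7%). The 2 were Cdkn1c, which encodes p57 (−1.18 ± 0.34, adjusted p = 0.151, and 0.0122 with the block), and E2f2 (1.59 ± 0.52, adjusted p = 0.202, and 0.00362 with the block). Without placebo 1 the value for E2f2 was 2.39. Exons of Cdkn1c overlap those of Gm44732 over 30.7% of their length.

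Of 20 p53 target genes, to which Cdkn1a also belongs by its regulation, 16 had the higher mean in the libraries labelled DHT, 1 was called higher in edgeR (0.952% of all genes) and 3 with the block (5.44%). The called gene was Eda2r, a receptor gene on the X chromosome (97333840 to 97377216), with 0.224, 0.236 and 0.432 CPM in placebo and 2.81, 1.38 and 1.52 in those labelled DHT (2.68 ± 0.47, adjusted p = 0.0360). Its call was lost without any one library except placebo 3 (adjusted p up to 0.155). Mdm2, which encodes the ligase that removes p53, stood at 12.2, 14.1 and 28.4 CPM in placebo against 22.8, 24 and 30.1 in the DHT-labelled libraries, and overlapped between groups.

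Of 18 growth signals and early genes of liver regeneration, 7 had the higher mean in the libraries labelled DHT, and 0 were called in edgeR, with 8 of 16 tested at an unadjusted p under 0.05, 2 higher and 6 lower (7.40% and 8.52% of all genes). With the block, 1 was called higher and 4 lower (5.44% and 5.28%). Ctgf, a matricellular factor and target of YAP, had −2.14 ± 0.48 as its log2 fold change (adjusted p = 0.0820, and 1.51e-05 with the block), and −1.55 without placebo 1. Yap1 itself went the other way (0.63 ± 0.27, adjusted p = 0.303), as did Cyr61 (0.73 ± 0.26, adjusted p = 0.237), and neither overlapped between groups. Exons of Ctgf overlap those of Gm15270 over 23.2% of their length. Hbegf, a ligand of the EGF receptor, had −1.63 ± 0.40 as its log2 fold change (adjusted p = 0.0967, and 0.0106 with the block). Myc, which drives entry into the cycle and was chosen after its values were seen, measured 12.6, 32.8 and 29.4 CPM in the placebo libraries and 1.57, 2.77 and 8.19 in those labelled DHT (−2.58 ± 0.64, adjusted p = 0.105, and 1.88e-09 with the block). Without DHT 3 the value for Myc was −3.52.

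Markers of other cells that could carry division transcripts were read beside the mitotic genes, where the groups did not overlap in 12.7% (higher) and 10.9% (lower) of all genes. The 7 T and B lymphocyte markers summed to 2.72 to 6.67 CPM in placebo and 3.40 to 4.83 in those labelled DHT, and 0 of 7 did not overlap. The 6 Kupffer cell and macrophage markers had 97.5 to 145 and 109 to 172 CPM, and the 6 endothelial markers 112 to 245 and 107 to 137 CPM, with 0 of 6 separated in each list. All 6 Kupffer markers had the higher mean in the libraries labelled DHT, but apart from Marco their log2 fold changes were only 0.01 to 0.17. Marco (0.70, and −0.05 with the block) had 34.0 CPM in DHT 3 and 4.77 and 3.18 in DHT 1 and 2. The 6 neutrophil markers had 1.18 to 3.58 and 2.37 to 3.93 CPM, with Ly6g at 0 counts in all libraries but DHT 1 and Mmp9 separated (higher). The erythroid list had 1 of 6 markers separated, Alas2 (higher). The other direction was seen in 4 of the 6, the globin genes, which had the lower mean in the libraries labelled DHT. The erythroid sums overlapped, at 1040 to 1530 CPM in placebo and 674 to 1170 in those labelled DHT. Stellate markers summed to 234 to 439 CPM in placebo and to 177 to 233 CPM in the libraries labelled DHT, with the lower mean there in 6 of 6 and Des separated. Of the cholangiocyte markers, 3 of 5 were separated (Krt19, Krt7 and Epcam), all lower. Hepatocyte markers summed to 93000 to 130000 CPM in placebo and to 70300 to 83600 CPM in the libraries labelled DHT, with 3 of 6 separated, all lower. No tested marker outside the Y-linked list was called in edgeR (1.65% of all genes). An unadjusted p under 0.05 (15.9% of all genes) was found for 3 cholangiocyte markers and 1 each of the hepatocyte, stellate, lymphocyte and erythroid lists. With the replicate block, which called 10.7% of all genes, 3 markers outside the Y-linked list were called. These were Cps1 lower (adjusted p = 0.139, and 0.00834 with the block), Krt19 lower (0.0892 and 0.00833) and Alas2 higher (0.0523 and 2.69e-05). The part of these cells in the levels of the division genes was not tested.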

How the data were processed

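Per the labels, RNA was prepared with an RNeasy Plus Universal kit and an NEB Next Ultra kit and read in paired ends. The submitters' processing notes name Trimmomatic 0.36, STAR 2.5.2b, featureCounts, Subread 1.5.2 and GRCm38. The deposited values were taken to be raw gene counts, and the file headers name exon coordinates and lengths. Not given in the sources used here are the strand setting and the handling of reads with several matches.

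From these counts, R 4.3.3 and edgeR 4.0.16 removed low counts (filterByExpr), scaled by TMM and ran the quasi-likelihood test (robust, no covariates), with Benjamini-Hochberg adjustment over 15126 genes. CPM values are TMM-scaled, an SE is the fold change over the square root of F, and calls are at an adjusted p under 0.05. Alternatives used DESeq2 1.42.0, limma 3.58.1, other scalings and filters, and fewer libraries. The fits were tested on simulated data.

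The titles number the libraries 1 to 3 in both groups and name no shared animal, litter or day. The pairing comes from the data, not the design: same-numbered libraries correlated at 0.246, 0.145 and 0.602 in their deviations, above the 0.1 asked for. For 2 of the 3 placebo libraries another number correlated more: placebo 1 with DHT 2 (0.287) and placebo 2 with DHT 1 (0.445). No libraries were duplicates (smallest chi-square per degree of freedom 104.3). Exact permutation of 3 against 3 cannot give a p below 0.1. Counts carry counting error: 3 counts are 0.0498 to 0.0726 CPM.

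The 39 genes and the other lists were chosen with earlier results of these data known. Every library's value is given for the gene with the smallest p and the one with the highest level per length in each of 8 roles, and for called genes. Cdkn1a, Wee1, E2f8, Cdk1, Mdm2 and Myc were added after their values were seen. From other lists, called genes or the 2 with the smallest p are named, with some others added after their values were seen.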

Additional observations from a re-analysis of the deposited data

How the results depend on the processing

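Over 18 alternatives, the fold changes of 32 of the 39 genes gave 572 values, of which 534 kept their direction and stayed not called, 35 kept their direction and became called, and 3 changed sign: Cdt1 (0.02) and Mcm5 (0.26) without placebo 1, and Rrm1 (0.00) with library size alone. Ranges over the libraries left out in turn were −0.65 to 0.02 for Cdt1 and −0.87 to 0.26 for Mcm5. Scaling by library size alone moved the all-gene median (log2) from −0.024 to 0.165, and those of the mitotic and replication genes to 1.14 and −0.09.

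Genes of the 39 called higher, 0 in edgeR, numbered 6 with the replicate block, 2 in DESeq2, 1 in limma voom, 5 with length and GC trends removed and the replicate block (not E2f8), and 1 without both libraries numbered 3 (Cdkn1a). Genes called lower, also 0, numbered 3 with no low-count filter, 3 with the replicate block, 3 in DESeq2, 2 in limma voom, 2 with length and GC trends removed, 3 with those trends removed and the block, and 1 without both libraries numbered 3 (Ccnd1). Leaving out 1 library gave 0 to 3 lower, the 3 without placebo 3 (Ccnd1, Cdkn2c and Wee1). The 2 calls in the other lists became 5, 20, 15, 11, 4, 18 and 6 with no filter, the block, DESeq2, limma voom, the trends removed, the trends removed with the block, and without both libraries numbered 3, and 0 to 12 without 1 library. All genes called, 250, became 521, 1621, 1062, 744, 511, 1565 and 448 in that order, and 84 to 862 without 1 library, the highest without placebo 3. A minimum of 1 CPM in 3 libraries, which tests fewer mitotic genes, took the median of the further mitotic genes from 0.88 to 0.21. The removal of length and GC trends and of both libraries numbered 3 was added after seeing the data. Every call of a named gene that the block changed is given with its block value above, except those of some further mitotic genes. These were Espl1 (adjusted p 0.201, and 0.0354 with the block), Cenpe (0.241 and 0.0476), Cenpf (0.355 and 0.0409) and Kif20a (0.198 and 0.00898). For the other changes the cause was not tested. The B cyclins, Plk1 and Bub1 had 2 to 113 counts a library, and small changes in them may have been missed. The smallest change that could be detected was not computed.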
